A study of Mus musculus with 10 samples.

Results

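Of the 25239 gene symbols in the deposited count table, 9 were examined here, the citrate cycle enzymes Cs, Idh2, Idh3a, Ogdh, Dlst, Suclg1, Suclg2, Fh1 and Mdh2, which were chosen by symbol. All 9 were present in the table and passed the filter on low counts in each comparison. RNA was sequenced from MLTC-1 cells, a line from a mouse Leydig cell tumour, given hymeglusin (n = 3), an inhibitor of HMG-CoA synthase, or its solvent control DMSO (n = 3), as well as from Leydig cells taken from mouse testes at 24 months (n = 2) or 2 months of age (n = 2). The labels name no strain, genotype, dose or length of treatment, and all MLTC-1 libraries come from a single line. Nothing in them tells whether the replicates of a group are different cultures or mice. The p-values below therefore reflect the spread between libraries, part or all of which may be technical. By its title the series concerns ketogenesis of these cells and testicular ageing.

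The citrate cycle is a ring of reactions in the mitochondrial matrix that oxidises the acetyl groups of glucose, fat and ketone bodies to carbon dioxide and passes the electrons to the respiratory chain. Ketone bodies enter it as acetyl-CoA, and their use takes a coenzyme A from succinyl-CoA, an intermediate of the cycle. Leydig cells lie outside the seminiferous tubules and make testosterone, and their mitochondria also hold the side-chain cleavage enzyme Cyp11a1, which draws on NADPH that the matrix enzyme Idh2 can supply.

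Total counts per library lay between 17407456 and 34787330. The 9 members together took 0.235% to 0.243% of the counts with hymeglusin, 0.260% to 0.265% with DMSO, with 0.148% and 0.176% in the 24-month libraries and 0.184% and 0.173% in young cells. The Leydig cell markers Cyp11a1, Cyp17a1, Hsd3b1, Hsd3b6, Star, Insl3, Lhcgr, Nr5a1 and Hsd17b3 were all detected in the primary cells, while Hsd17b3 was at 0 in 2 of the 3 DMSO libraries. Summed over these 9 markers, the libraries held 6531 to 6684 CPM (counts scaled to the library's size) with hymeglusin, 8934 to 9182 CPM with DMSO, 29164 and 19553 CPM in cells of 24-month-old mice and 22150 and 20064 CPM in those of 2-month-old mice.

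The members lie on 8 chromosomes, here with RefSeq gene bounds on GRCm38.p6. Cs (chr10:128337727-128362482, plus strand), citrate synthase, joins acetyl-CoA to oxaloacetate. Idh2 (chr7:80094845-80118608, minus strand) is the NADP-dependent isocitrate dehydrogenase of the matrix, and Idh3a (chr9:54586511-54604662, plus strand) is the catalytic subunit of the NAD-dependent enzyme. Ogdh (chr11:6291597-6359094, plus strand) and Dlst (chr12:85110822-85134091, plus strand) are the dehydrogenase and the succinyl-transferring subunit of the 2-oxoglutarate dehydrogenase complex. Suclg1 (chr6:73248505-73276907, plus strand) is the alpha subunit that both succinyl-CoA ligases share, and Suclg2 (chr6:95473009-95718858, minus strand) is the beta subunit of the ligase that forms GTP. Fh1 (chr1:175601378-175625635, minus strand), fumarase, hydrates fumarate to malate, and Mdh2 (chr5:135778649-135790386, plus strand), the mitochondrial malate dehydrogenase, regenerates oxaloacetate. By GENCODE gene bounds, which include introns, Fh1 overlaps Kmo on the opposite strand over 5255 bases. Overlap of their exons was not examined, and how the counting treated strand is not given in the sources used here. Whether reads of Fh1 and Kmo were mixed there is therefore not known. Idh2 overlaps Gm45203 and Cs holds the snoRNA Gm23182, both on the member's own strand, so strand does not part their reads.

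RefSeq promoter windows on GRCm38.p6, from 250 bases before to 50 bases after the start, matched 8 of the 9 members, all but Idh3a. The 250 bases upstream of the start are shown for Ogdh and Mdh2, which held an 8-base cAMP response element (CRE), and for Suclg1 and Suclg2, the members with the largest difference with hymeglusin. Capitals mark TGACGTCA in Ogdh and Mdh2, and in Ogdh the further bases of a hypoxia-element hexamer that overlaps it on the other strand. The windows are, from 5′ to 3′ along each gene, chr11:6291347-6291596 on the plus strand for Ogdh, chr5:135778399-135778648 on the plus strand for Mdh2, chr6:73248255-73248504 on the plus strand for Suclg1 and chr6:95718847-95719096 on the minus strand for Suclg2.
Ogdh: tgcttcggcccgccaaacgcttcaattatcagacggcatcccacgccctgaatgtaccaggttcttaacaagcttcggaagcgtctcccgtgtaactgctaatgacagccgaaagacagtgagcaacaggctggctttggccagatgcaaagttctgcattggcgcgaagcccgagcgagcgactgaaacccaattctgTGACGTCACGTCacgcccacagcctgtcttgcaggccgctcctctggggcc
Mdh2: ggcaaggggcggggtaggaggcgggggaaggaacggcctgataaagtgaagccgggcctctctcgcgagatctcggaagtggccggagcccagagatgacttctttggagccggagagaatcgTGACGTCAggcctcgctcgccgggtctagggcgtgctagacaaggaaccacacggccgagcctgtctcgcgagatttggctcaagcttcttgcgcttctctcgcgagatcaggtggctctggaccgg
Suclg1: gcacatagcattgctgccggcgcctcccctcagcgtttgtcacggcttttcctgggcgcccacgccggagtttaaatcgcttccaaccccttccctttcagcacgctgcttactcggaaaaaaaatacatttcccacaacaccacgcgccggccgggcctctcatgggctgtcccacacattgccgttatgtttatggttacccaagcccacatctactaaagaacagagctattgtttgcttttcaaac
Suclg2: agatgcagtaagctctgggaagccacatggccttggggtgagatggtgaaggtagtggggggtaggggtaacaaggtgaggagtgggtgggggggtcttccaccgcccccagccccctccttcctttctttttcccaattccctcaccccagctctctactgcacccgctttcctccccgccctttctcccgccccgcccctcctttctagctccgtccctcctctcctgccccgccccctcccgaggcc

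The CRE, TGACGTCA, began 127 bases before the start in Mdh2 and 51 bases before it in Ogdh, and 2.37% of 18651 promoter windows of the table held it on either strand. In Ogdh, GACGTG, which 7.13% of the windows held, and its core ACGTG, which 21.1% held, lay on the other strand and shared bases with the CRE. The letters ACCGGAAG, an ETS-type site bound by GABP, stood in the Dlst window just after the start (3.05% of windows). None of the first-listed windows of the 8 members held TCAAGGTCA (ERR; 0.359% of windows), CAAGGTCA (SF-1, also contained in the ERR letters; 1.27%), GCGCATGC (a piece of the NRF1 element; 3.62%) or CACGTG (E-box; 8.11%), on either strand. The Idh2 window, chr7:80115301-80115600 on the minus strand, lies inside the gene bounds given above. Its lack of these letters thus concerns an internal start. Ogdh alone among the members had more than 1 listed window, 6 in all. Of the 5 further ones, 2 held the CRE, 1 held CAAGGTCA, 2 held GCGCATGC and 3 held CACGTG, and since some of the windows overlap, the same letters are counted in more than 1. These matches are descriptions of the letters, and binding was not measured.

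Levels in the 4 groups were compared as CPM per kilobase of the longest transcript, scaled over all 10 libraries by the trimmed mean of M-values (TMM). Mdh2 stood highest in every group, at 299 ± 18.8 CPM per kb with hymeglusin, 306 ± 6.27 with DMSO (SD, n = 3 each), 242 ± 8.06 at 24 months and 150 ± 13.8 at 2 months (SD, n = 2 each). Idh3a stood lowest with DMSO (39.5 ± 0.535), at 24 months (19.7 ± 4.35) and at 2 months (18.2 ± 0.902), and Suclg2 was lowest with hymeglusin (31.4 ± 0.661). The lowest and the highest member were thus far apart in each group, and the places between them were less firm.

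With hymeglusin the order was Mdh2, Cs, Idh2, Ogdh, Dlst, Fh1, Suclg1, Idh3a and Suclg2, in which Idh2 (116 ± 7.71 CPM per kb) and Ogdh (110 ± 4.71) overlapped within 1 SD. With DMSO, Ogdh (126 ± 8.12) and Idh2 (125 ± 2.62) changed places and overlapped, as did Dlst (76.3 ± 2.48) and Fh1 (72.5 ± 1.56), and Suclg2 (41.8 ± 1.09) stood above Idh3a. At 24 months Idh2 (121 ± 12.6) and Suclg1 (91.7 ± 5.67) followed Mdh2. There Suclg2 (69.0 ± 16.7), Cs (63.2 ± 2.98), Ogdh (61.6 ± 19.3) and Fh1 (58.8 ± 0.815) could not be put in order within their spread. At 2 months Idh2 (92.8 ± 4.40), Ogdh (82.1 ± 6.02) and Cs (74.3 ± 3.79) came next, and Cs overlapped Ogdh while Suclg1 (65.5 ± 1.21) overlapped Suclg2 (63.4 ± 4.12). Cs, second of the members in both MLTC-1 groups, was thus in the middle of the order in the primary cells. Suclg1 and Suclg2 stood higher in the order there than in MLTC-1 cells, though below Cs at 2 months.

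The longest transcript of Cs, Dlst, Suclg1 and Mdh2 retains an intron, and that of Idh2 is a target of nonsense-mediated decay. Per kilobase of the longest coding transcript, a measure chosen after seeing the data, Suclg1 was at 81.2 ± 2.71 CPM with hymeglusin, 105 ± 5.06 with DMSO, 167 ± 10.3 at 24 months and 119 ± 2.2 at 2 months. It then ranked after Mdh2 alone at both ages of primary cells. Mdh2 remained first and Idh3a or Suclg2 last in every group.

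**Figure D1:**
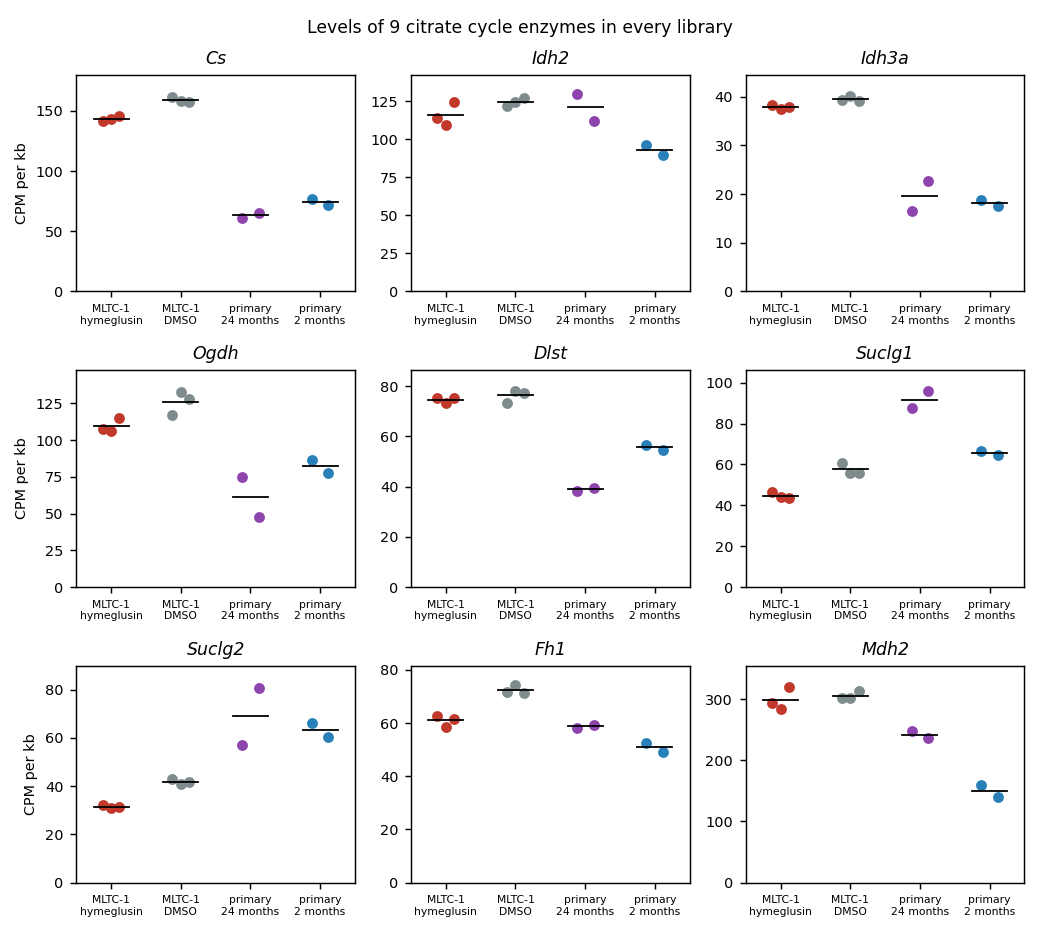
Each panel shows 1 enzyme as CPM per kilobase of its longest transcript, scaled over all 10 libraries, with a point per library and a line at the group mean. Cs, Idh3a, Ogdh, Dlst and Mdh2 are higher in every MLTC-1 library than in every primary cell library, and Suclg1 and Suclg2 are lower with hymeglusin than in any other group.

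The first comparison asked how hymeglusin changed the expression of these enzymes in MLTC-1 cells. All 9 members fell, with a median log2 fold change of -0.23 (range -0.49 to -0.12) against 0.01 over all 12873 tested genes. Of all tested genes 48.3% were called, with 24.5% lower and 23.8% higher, at an adjusted p under 0.05 by edgeR's quasi-likelihood test with Benjamini-Hochberg adjustment. For all 9 members the hymeglusin and DMSO libraries did not overlap, as for 54.9% of tested genes. An unadjusted p under 0.05 was reached by 9 of 9 members and by 53.8% of tested genes. Fitted levels with hymeglusin ranged between 0.710 and 0.923 of those with DMSO. CPM values of single libraries given with a test are on the TMM scale of that comparison.

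Among the members the largest differences were in the succinyl-CoA ligase, the enzyme that splits succinyl-CoA to succinate. Suclg2 had 110, 106 and 104 CPM in the hymeglusin libraries, against 155, 145 and 151 CPM in the DMSO libraries. Its highest hymeglusin library lay well below its lowest DMSO library, and it fell by 0.49 on the log2 scale (SE 0.0501, 95% interval -0.60 to -0.39, adjusted p = 2.88e-10). Suclg1 had 130, 123 and 120 CPM with hymeglusin, against 180, 164 and 166 CPM with DMSO. The groups were again apart, with DMSO replicate 1 standing above the other two, and Suclg1 fell by 0.45 (SE 0.0515, 95% interval -0.55 to -0.35, adjusted p = 4.10e-09). Sucla2, the beta subunit of the ligase that forms ATP, fell as well, by 0.31 (SE 0.0577, adjusted p = 2.92e-05). Fh1, fumarase, had 168, 157 and 161 CPM with hymeglusin, against 203, 207 and 202 CPM with DMSO. No library of either treatment came near the other group, and Fh1 fell by 0.33 (SE 0.0480, 95% interval -0.43 to -0.23, adjusted p = 4.73e-07).

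At the 2-oxoglutarate dehydrogenase complex every tested subunit fell. Ogdh had 453, 446 and 472 CPM with hymeglusin, against 517, 578 and 568 CPM with DMSO. The hymeglusin libraries were close together and below every DMSO library, of which the first was lowest, and Ogdh fell by 0.28 (SE 0.0479, 95% interval -0.38 to -0.18, adjusted p = 9.13e-06). Dlst had 246, 239 and 241 CPM with hymeglusin, against 254, 265 and 268 CPM with DMSO. The groups came close without overlapping, and Dlst fell by 0.12 (SE 0.0463, 95% interval -0.21 to -0.02, adjusted p = 0.0372). The further subunits Dld, the lipoamide dehydrogenase (log2 -0.25, SE 0.0526), and Mrps36, which holds the complex together (log2 -0.44, SE 0.0886), fell too. Ogdhl, a relative of Ogdh, fell by 0.64 (SE 0.0633, adjusted p = 1.59e-10).

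Citrate synthase and the isocitrate dehydrogenases opened the cycle with smaller differences. Cs had 432, 437 and 435 CPM with hymeglusin, against 521, 501 and 506 CPM with DMSO. Its hymeglusin libraries were nearly equal and all lower, and Cs fell by 0.23 (SE 0.0445, 95% interval -0.32 to -0.14, adjusted p = 5.30e-05). Idh2 had 207, 199 and 221 CPM with hymeglusin, against 234, 236 and 245 CPM with DMSO. Hymeglusin replicate 3 was nearest to the DMSO group, and Idh2 fell by 0.19 (SE 0.0488, 95% interval -0.29 to -0.09, adjusted p = 0.00171). Idh3a had 100.3, 98.2 and 97.3 CPM with hymeglusin, against 109, 109 and 108 CPM with DMSO. The groups were narrow and apart, and Idh3a fell by 0.14 (SE 0.0506, 95% interval -0.25 to -0.04, adjusted p = 0.0193). Of the other subunits of this enzyme, Idh3b fell by 0.15 (SE 0.0496, adjusted p = 0.0107) and Idh3g stood at -0.01 (adjusted p = 0.893). Mdh2, which closes the cycle, had 478, 462 and 510 CPM with hymeglusin, against 521, 512 and 540 CPM with DMSO. Hymeglusin replicate 3 almost reached the lowest DMSO library, and Mdh2 fell by 0.12 (SE 0.0468, 95% interval -0.21 to -0.02, adjusted p = 0.0365).

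**Figure D2:**
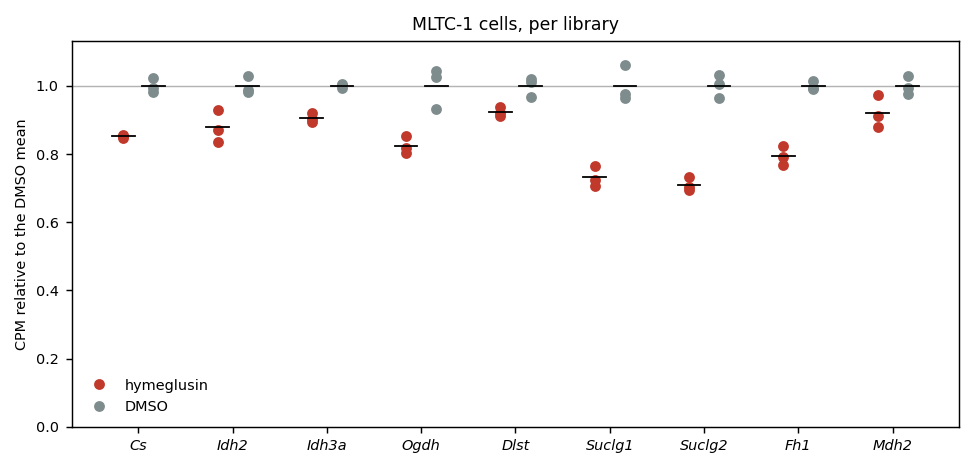
CPM of each enzyme in every MLTC-1 library relative to its mean with DMSO, with hymeglusin left of DMSO, a point per library and a line at the group mean. Suclg1 and Suclg2 lie lowest, and Dlst and Mdh2 lie nearest to the DMSO libraries.

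Among 11 other enzymes and subunits of the cycle, 10 were tested, of which 7 fell and 0 rose (median log2 fold change -0.26). Of all tested genes 24.5% fell and 23.8% rose. By an unadjusted p under 0.05, 8 of the 10 passed, as did 53.8% of all tested genes. DESeq2 also called 8 of them lower and 0 higher, and over all genes it called 3070 lower and 2861 higher. Succinate dehydrogenase, the complex between the ligase and fumarase, was split. Its iron-sulphur subunit Sdhb had 220, 221 and 223 CPM with hymeglusin, against 350, 338 and 332 CPM with DMSO, a fall of 0.62 (SE 0.0459, adjusted p = 1.43e-13). The flavoprotein Sdha fell by 0.27 (SE 0.0463, adjusted p = 1.07e-05), while the membrane anchors Sdhc (log2 -0.11, adjusted p = 0.0637) and Sdhd (log2 0.00, adjusted p = 0.968) did not pass the threshold. Csl, a copy of Cs, was not tested for its low counts.

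Genes of mitochondrial content and regulators were counted beside the members. Of 16 genes for import, chaperones and channels of mitochondria, 14 fell and 0 rose (median log2 fold change -0.34), among them the protease Lonp1 (-0.63), the chaperonin Hspd1 (-0.51) and the ATP/ADP carrier Slc25a5 (-0.47). Of 13 tested regulators of mitochondrial genes, 6 fell, 0 rose and 7 were not called, including among those that fell Ppara (-0.45), a receptor that drives fat oxidation genes, Yy1 (-0.30) and Esrrg (-0.41), an oestrogen-related receptor. The share of regulators called in either direction was near the 48.3% of all tested genes, of which 24.5% fell. Among the Leydig cell markers, 5 of 8 tested fell and 1 rose, and the summed marker levels given above did not overlap between treatments. The 9 spermatid markers summed to at most 1.13 CPM in any MLTC-1 library. The part of these in the members' difference was not tested. In bulk RNA, fewer cells of a type and less RNA per cell cannot be told apart.

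**Figure D3:**
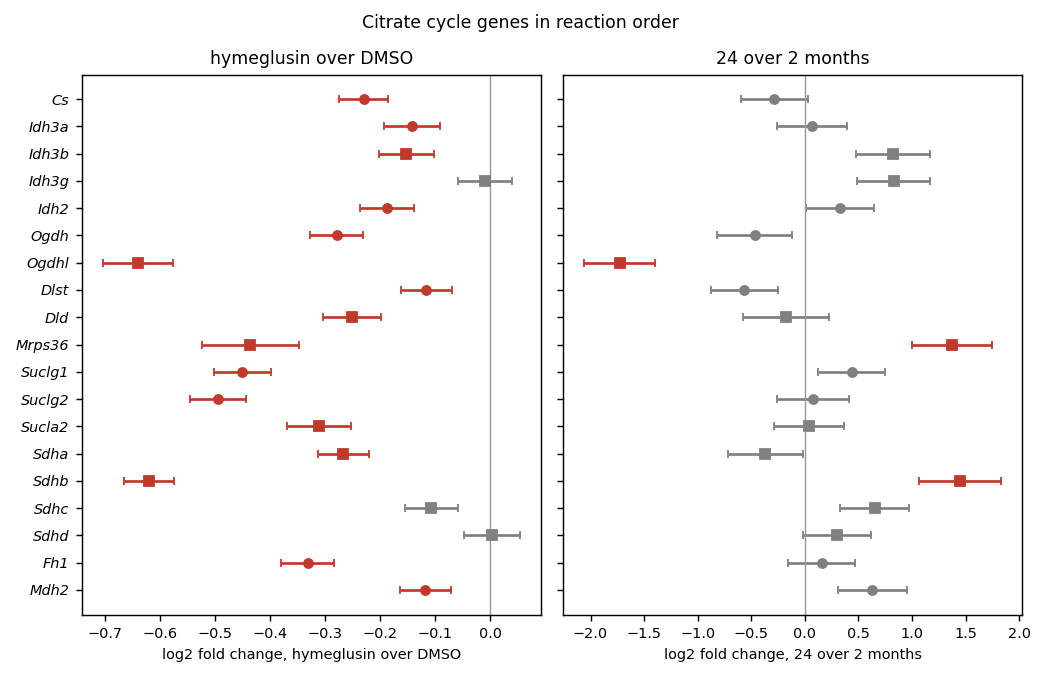
Log2 fold changes of the cycle's genes in reaction order from Cs at the top, for hymeglusin over DMSO on the left and 24 over 2 months on the right. Circles are the 9 members, squares the other enzymes and subunits, bars the SE, and red marks an adjusted p under 0.05, which all 9 members pass on the left and none on the right.

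The calls of Dlst and Mdh2 were the weakest. The adjusted p of Dlst was 0.141 when DMSO replicate 2 was left out, 0.12 without DMSO replicate 3, and 0.0693, 0.0737 and 0.0738 when each hymeglusin library was left out. That of Mdh2 was 0.0577 without DMSO replicate 2, 0.135 without DMSO replicate 3, 0.125 without hymeglusin replicate 1 and 0.159 without hymeglusin replicate 2. Idh3a lost its call without DMSO replicate 2 (0.0736) or hymeglusin replicate 3 (0.0565), and upper quartile scaling ended the calls of Dlst (0.135), Mdh2 (0.124) and Idh3a (0.0699). A filter at 10 CPM ended those of Dlst (0.0930) and Mdh2 (0.0881), which left 7 members lower. On total counts, which shift the median of all genes to 0.11 from 0.01, 5 members were called lower and all 9 had a negative log2 fold change. In a fit of all 10 libraries, whose spread the primary cells widen, no member was called (Suclg1 nearest, adjusted p = 0.050). On that common scale Cs stood at -0.15 in place of -0.23, and the hymeglusin and DMSO libraries of Idh2, Dlst and Mdh2 overlapped.

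Ratios taken within each library do not depend on the scaling, and per kilobase of coding transcript 4 of 7 ratios did not overlap between treatments. Idh2 to Idh1, the cytosolic NADP-dependent enzyme, was 0.429, 0.403 and 0.453 with hymeglusin, against 0.333, 0.349 and 0.365 with DMSO, a log2 difference of 0.29. Dlst to Ogdh was 0.811, 0.801 and 0.762 with hymeglusin, against 0.733, 0.686 and 0.704 with DMSO (log2 difference 0.16). Both ratios were higher in every hymeglusin library than in any DMSO library. Suclg2 to Sucla2 was 0.708, 0.646 and 0.679 with hymeglusin, against 0.720, 0.741 and 0.860 with DMSO (log2 difference -0.19), and Mdh2 to the cytosolic Mdh1 was 1.07, 1.06 and 1.14 with hymeglusin, against 1.0, 1.01 and 1.04 with DMSO (0.10). For each of the 4, the two-sided exact permutation test gave p = 0.1, the smallest that 3 against 3 libraries allow. The ratios of Idh2 to Idh3a (p = 0.5), Idh3a to Idh3b (p = 0.9) and Suclg1 to the summed beta subunits (p = 0.3) overlapped by the same exact permutation test, and adjusted over the 7 ratios by Benjamini-Hochberg the smallest is 0.175.

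The second comparison set primary Leydig cells of 24-month-old mice against those of 2-month-old mice. None of the 9 members was called at an adjusted p under 0.05 by edgeR, DESeq2 or limma-voom, and 0 of 9 had an unadjusted p under 0.05, against 28.6% of 16381 tested genes called (13.5% higher and 15.1% lower) and 43.2% with an unadjusted p under 0.05. The members went both ways, with a median log2 fold change of 0.07 (range -0.56 to 0.63) against -0.01 over all tested genes. The libraries of the ages did not overlap for 7 of 9 members, as for 73.8% of tested genes. The spread was wide, and no interval excluded a difference of 0.

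Mdh2 had the largest positive difference. It had 368 and 354 CPM at 24 months, against 256 and 211 CPM at 2 months. Both aged libraries stood above both young ones, at a log2 fold change of 0.63 (SE 0.319, 95% interval -0.09 to 1.35, adjusted p = 0.158). Suclg1 had 225 and 247 CPM at 24 months, against 182 and 167 CPM at 2 months, and Idh2 had 216 and 187 CPM at 24 months, against 171 and 150 CPM at 2 months. Their ages did not overlap either, and their log2 fold changes were 0.44 (SE 0.312, adjusted p = 0.306) and 0.33 (SE 0.315, adjusted p = 0.442). Fh1 had 142 and 146 CPM at 24 months, against 138 and 121 CPM at 2 months. Its 4 libraries were close together, at 0.16 (SE 0.311, adjusted p = 0.723).

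Dlst lay furthest in the other direction. It had 115 and 119 CPM at 24 months, against 181 and 164 CPM at 2 months. Within each age the libraries were close, and the log2 fold change was -0.56 (SE 0.311, 95% interval -1.26 to 0.13, adjusted p = 0.191). Ogdh, its partner in the complex, had 288 and 185 CPM at 24 months, against 354 and 300 CPM at 2 months. The aged libraries of Ogdh differed from each other more than the nearest pair of ages did, and its log2 fold change was -0.47 (SE 0.349, adjusted p = 0.325). Cs had 170 and 183 CPM at 24 months, against 230 and 201 CPM at 2 months (log2 -0.28, SE 0.313, adjusted p = 0.509). Idh3a had 39.7 and 54.9 CPM at 24 months, against 48.2 and 42.2 CPM at 2 months, and Suclg2 had 179 and 255 CPM at 24 months, against 222 and 190 CPM at 2 months. In both genes the young libraries lay between the aged ones, and the log2 fold change was 0.07 in each (adjusted p = 0.892 for Idh3a and 0.884 for Suclg2).

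**Figure D4:**
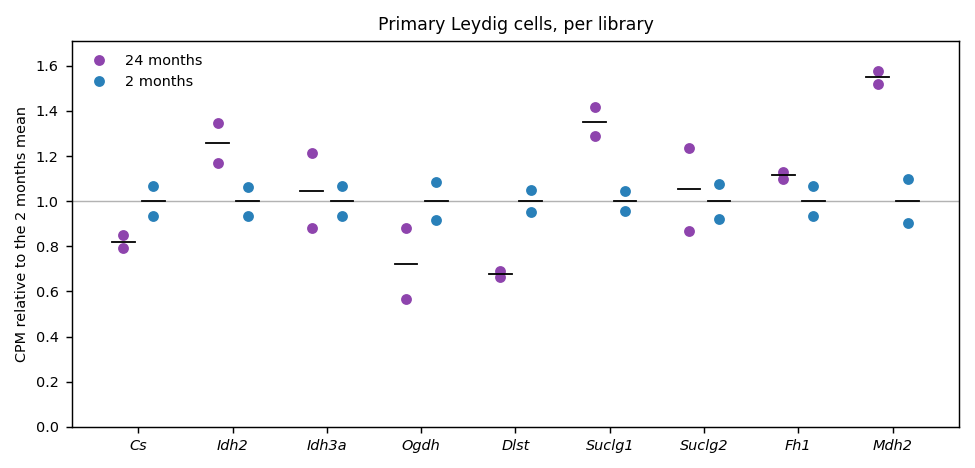
CPM of each enzyme in every primary cell library relative to its mean at 2 months, with 24 months left of 2 months, a point per library and a line at the group mean. Without a length offset, Mdh2 and Suclg1 lie above and Dlst and Cs below the young libraries, and the aged libraries of Idh3a, Ogdh and Suclg2 lie far apart.

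Of the 11 other enzymes and subunits of the cycle, 2 rose and 1 fell with age, a share near the 28.6% of all tested genes that were called. Sdhb had 548 and 288 CPM at 24 months, against 160 and 146 CPM at 2 months, a rise of 1.45 on the log2 scale (SE 0.385, adjusted p = 0.0249). Mrps36 had 96.5 and 53.7 CPM at 24 months, against 31.3 and 26.6 CPM at 2 months, a rise of 1.38 (SE 0.373, adjusted p = 0.0262). Ogdhl had 140 and 161 CPM at 24 months, against 555 and 446 CPM at 2 months, a fall of 1.73 (SE 0.333, adjusted p = 0.0106). The first aged library was the higher one for both genes that rose. Idh3b stood at 0.82 and Idh3g at 0.83, neither past the threshold (adjusted p = 0.0961 and 0.0962), beside 0.07 for Idh3a. Of 16 genes of mitochondrial content, 3 rose and 0 fell, namely Clpp (1.58), Phb (1.15) and Phb2 (1.20), and of 15 regulators 0 rose and 3 fell, namely Ppara (-2.27), Pprc1 (-2.10) and Esrrg (-1.64). Of all tested genes 13.5% rose and 15.1% fell, close to the share of the first list that rose and of the second that fell. The part of transcript length, described next, in the values of both lists was not tested.

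Transcript length moved with age in these libraries. Split into 4 equal bins by length, among the shortest genes 36.4% were called higher and 1.57% lower at 24 months, and among the longest 1.92% were called higher and 43.2% lower. With an offset for length, Mdh2 stood at -0.10, Idh2 at -0.28, Idh3a at -0.07 and Ogdh at 0.06, each on the other side of 0 from its value without the offset. With an offset for length and GC content, Mdh2 (-0.11) and Idh2 (-0.33) were again turned round. Dlst (-0.41 and -0.35), Suclg1 (0.38 and 0.48) and Cs (-0.23 and -0.16) kept their direction under both offsets. The offsets used the longest transcript, which for Suclg1 retains an intron and has 2767 bases, against 1519 bases in its longest coding transcript. An offset by coding length was not fitted, so the direction of Suclg1 holds for the longest transcript only. With the length offset, neither Sdhb nor Mrps36 was called among the other cycle genes, and 1 gene was still called lower.

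**Figure D5:**
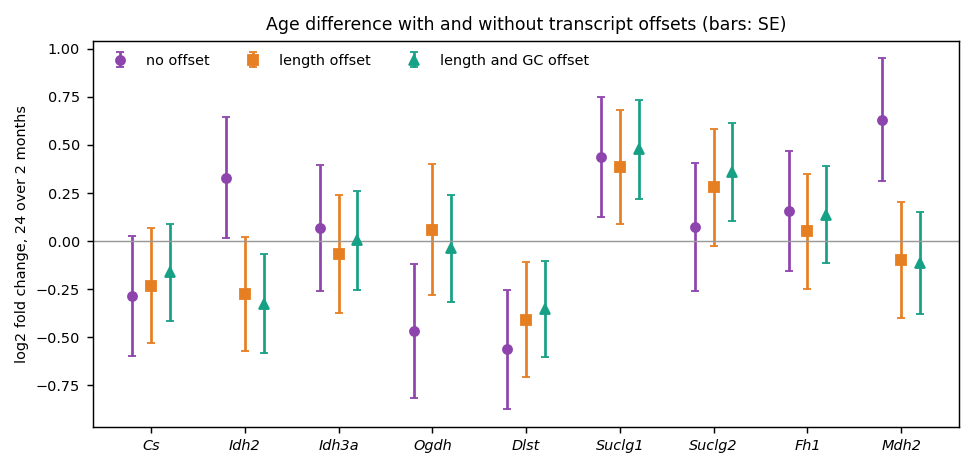
Log2 fold change of each enzyme at 24 over 2 months without an offset, with an offset for transcript length, and with an offset for length and GC content, with bars for the SE. Mdh2 and Idh2 lie above 0 without an offset and below 0 with either offset, while Dlst, Cs and Suclg1 keep their side. Lengths are those of the longest transcript, which for Suclg1 retains an intron.

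Markers of other cells also differed between the ages, where 13.5% of all tested genes rose and 15.1% fell. Of 9 spermatid markers, 8 rose, with a summed level of 11095 and 5725 CPM at 24 months, against 1712 and 2322 CPM at 2 months, and none was at 0 in any primary cell library. Of 10 macrophage markers 4 rose and 6 were not called, and 8 of the 10 had a positive log2 fold change. All 10 summed to 61.5 and 49.2 CPM at 24 months, against 13.7 and 15.3 CPM at 2 months. Lyz2 was the largest part of the sum at 24 months (17.5 and 23.6 CPM). Adgre1 was lower there without a call (0.439 and 0.266 CPM, against 0.576 and 0.947 CPM at 2 months). Of 6 neutrophil markers 4 were tested, and all 4 rose (summed 11.7 and 67.4 CPM, against 0.947 and 1.10 CPM). Ly6g and Csf3r were not tested, and Ly6g was at 0 in every primary cell library. S100a8, S100a9 and Elane were at 0 in both 2-month libraries. Of 5 stromal markers 1 rose and 2 fell (124 and 206 CPM at 24 months, against 436 and 464 CPM at 2 months), and of 9 Leydig cell markers 1 rose and 1 fell. The part of these cells and of transcript length in the members' values was not tested.

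Single libraries weighed on the age values. Without 24-month replicate 1, the log2 fold change was 0.56 for Mdh2, 0.46 for Suclg1, -0.59 for Dlst and -0.87 for Ogdh. Without 24-month replicate 2, Mdh2 stood at 0.60 and Dlst at -0.65, and Idh3a (-0.24) and Suclg2 (-0.26) turned round. In these fits the lone aged library is assumed to vary like the pair of young ones, so only the size of each difference is given here. Among the 7 within-library ratios, Suclg1 to the summed beta subunits was 1.15 and 0.894 at 24 months, against 0.791 and 0.744 at 2 months, and Idh3a to Idh3b was 0.0881 and 0.184 at 24 months, against 0.212 and 0.216 at 2 months. Neither overlapped between the ages, and the two-sided exact permutation test gave p = 0.333 for both, the smallest that 2 against 2 libraries allow.

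The last comparison set MLTC-1 cells with DMSO against primary Leydig cells of 2-month-old mice. Cell line, culture, origin and the mix of cells cannot be told apart in it, so it gives a difference in level only. Of the 9 members 7 were higher and 2 lower in MLTC-1 cells (median log2 fold change 0.50). Of 16092 tested genes 82.8% were called, with 34.4% higher and 48.5% lower, 83.6% had an unadjusted p under 0.05, and the median of all genes was -0.27. The libraries did not overlap for any member, as for 89.4% of tested genes. Markers of other cells differed as well. All 9 spermatid markers, all 9 tested macrophage markers and all 4 tested stromal markers were called lower in MLTC-1 cells. Of the Sertoli cell markers 4 were lower and 1 higher, and of the Leydig cell markers 7 were lower and 2 higher. The part of these cells in the members' values was not tested.

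Idh3a, Cs and Mdh2 differed most. Idh3a had 105, 106 and 104 CPM in MLTC-1 cells, against 49.7 and 47.3 CPM in primary cells (log2 1.11, SE 0.0636, adjusted p = 3.33e-07). Cs had 502, 484 and 488 CPM in MLTC-1 cells, against 237 and 225 CPM in primary cells (log2 1.09, SE 0.0572, adjusted p = 2.01e-07), and Mdh2 had 502, 495 and 521 CPM in MLTC-1 cells, against 264 and 236 CPM in primary cells (log2 1.02, SE 0.0660, adjusted p = 7.60e-07). The fitted folds of these 3 enzymes were 2.17, 2.13 and 2.02, and their MLTC-1 libraries lay far above the primary ones. Ogdh (0.61), Fh1 (0.50), Dlst (0.45) and Idh2 (0.42) were higher by less in this fit. Over 16 alternatives the log2 values ran from 0.95 to 1.72 for Idh3a, 0.92 to 1.38 for Cs and 0.85 to 1.64 for Mdh2. They were 0.34 to 1.03 for Fh1, 0.25 to 0.92 for Idh2, 0.44 to 0.68 for Ogdh and 0.28 to 0.63 for Dlst. Transcript length moved here too, with a median log2 fold change of -0.91 among the shortest genes and 0.10 among the longest. The part of length in these values was not tested. The other cycle genes were divided, with 3 higher and 8 lower. Sdhb differed most among the higher ones, at 337, 327 and 320 CPM in MLTC-1 cells, against 165 and 164 CPM in primary cells (adjusted p = 3.22e-07), beside log2 values of 0.30 for Sdhc and 0.26 for Idh3b. Csl differed most among the lower ones and was near 0 in the cell line, at 0.123, 0.173 and 0.0786 CPM in MLTC-1 cells, against 23.5 and 46.1 CPM in primary cells. Whether other cells of the primary preparations carried the Csl reads was not tested. Ogdhl (-3.09), Dld (-1.11) and Sucla2 (-0.77) were also among the lower ones.

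The ligase subunits ran the other way. Suclg2 had 149, 140 and 146 CPM in MLTC-1 cells, against 229 and 213 CPM in primary cells (log2 -0.61, SE 0.0607, adjusted p = 1.37e-05). Suclg1 had 174, 158 and 160 CPM in MLTC-1 cells, against 188 and 187 CPM in primary cells (log2 -0.19, SE 0.0621, adjusted p = 0.0165). The call of Suclg1 was lost without DMSO replicate 2 (adjusted p = 0.0892) or DMSO replicate 3 (0.0710), and with the length offset it stood at 0.12 (adjusted p = 0.103) and with length and GC content at 0.31 (adjusted p = 0.000498). Both offsets used its longest transcript, which retains an intron. Idh2 to Idh3a was 3.18, 3.19 and 3.34 in MLTC-1 cells, against 5.24 and 5.25 in primary cells, and Idh3a to Idh3b was 0.390, 0.394 and 0.375 in MLTC-1 cells, against 0.212 and 0.216 in primary cells. Idh2 to Idh1 differed most, at 0.333, 0.349 and 0.365 in MLTC-1 cells, against 0.178 and 0.184 in primary cells (log2 difference 0.95). Of the 7 ratios, 6 did not overlap, all but Suclg2 to Sucla2, each with p = 0.1 by the exact permutation test, the smallest that 3 against 2 libraries allow, and 0.117 adjusted over the 7 ratios.

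Over the 10 libraries the mean profile of the 9 members, in centred log2 CPM, lay at 0.06, 0.02 and 0.09 with hymeglusin, 0.22, 0.24 and 0.24 with DMSO, -0.19 and -0.16 at 24 months, and -0.21 and -0.31 at 2 months. Fh1 (Pearson r = 0.943), Idh3a (0.929), Cs (0.923), Mdh2 (0.857), Ogdh (0.796), Dlst (0.782) and Idh2 (0.689) followed it, while Suclg1 (-0.546) and Suclg2 (-0.675) ran against it. Among 10833 genes compared, those outside the lists with the profile most like it were Ak4 (r = 0.994), Slc2a1 (0.993), Gltp (0.990), Anp32a (0.990) and Ccdc152 (0.987). The libraries fall into separate groups of cell line and primary cells, so these values describe the 10 libraries and carry no test.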

How the data were processed

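Gene expression was measured by RNA sequencing in 10 mouse libraries, from NEBNext Ultra RNA kits per the labels' protocols. The authors deposited a table of raw, unnormalized counts, a whole number for each gene symbol and library. The submitters' processing notes name the mm10 build and featureCounts 2.0.6, HISAT2 2.2.1, FastQC 0.12.1 and fastp 0.23.4. Options and gene annotation of the counting were not given in the sources used here. Groups and replicate numbers came from the labels. With hymeglusin, the correlations of same-numbered libraries lay within the range of the others, so the numbers were not taken as pairs. With 2 libraries at each age this could not be judged.

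Each comparison was fitted alone in edgeR 4.0.16 (R 4.3.3). After filterByExpr, with a minimum count of 10 and a minimum total of 15, and TMM scaling, the two-sided quasi-likelihood F-test (robust) was used, and p-values were adjusted by Benjamini-Hochberg over all tested genes with a threshold of 0.05. The SE is the size of the log2 fold change divided by the square root of F. Levels and marker sums were scaled by TMM over all 10 libraries. Replicate pairs differed beyond counting noise (chi-square per degree of freedom 3.44 to 134), and each library was counted as a sample. The alternatives were DESeq2 1.42.0, voom of limma 3.58.1, scaling by total counts, by upper quartile or by RLE, no count filter, a filter at 10 CPM, all 10 libraries in 1 fit, a replicate block, offsets by loess (span 0.3) on length and on length and GC content of the longest GENCODE M21 transcript, and leaving out each library. Per-kilobase levels by coding transcript were added after seeing the data. The fits were tested on simulated data. The members and lists were chosen with earlier results of these data known. A gene on the planned list of other cycle genes is not reported here. All members and the remaining cycle genes could be named, and from other lists up to 3 genes per direction of smallest adjusted p.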

Additional observations from a re-analysis of the deposited data

How the results depend on the processing

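With hymeglusin, total counts gave 4659 genes higher and 1996 lower with 5 members lower, and the fit of all 10 libraries gave 645, 289 and 0. The share of calls that were higher was 70.0% and 69.1% there, against 49.4%. The members kept their direction under all 17 alternatives, and leaving out each library gave 2644 to 2913 genes higher, 2753 to 3074 lower and 6 to 9 members lower.

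With age, total counts gave 531 genes higher and 1301 lower, the length offset 1428 and 917, and the length and GC offset 1505 lower. The fit of all 10 libraries gave 4309 and 4559, with 3 members higher (Idh2, Suclg1 and Mdh2) and 1 lower (Dlst). Leaving out each library gave 239 to 4259 genes higher and 602 to 5628 lower, with 0 to 2 members called in each direction. The share of calls that were higher was 47.3%, against 29.0% under total counts, 59.6% under upper quartile scaling and 60.9% with the length offset. The median of all genes was -0.21, 0.17 and -0.01 under these, and -0.13 without 24-month replicate 2. Total counts turned round Idh3a (-0.12), Suclg2 (-0.11) and Fh1 (-0.044), the length offset Idh2 (-0.28), Idh3a (-0.067), Ogdh (0.060) and Mdh2 (-0.10), and length with GC content Idh2 (-0.33) and Mdh2 (-0.11). Leaving out 2-month replicate 2 (-0.05 in each) or 24-month replicate 2 turned round Idh3a and Suclg2, which ran from -0.24 to 0.23 and from -0.26 to 0.26 over the left-out libraries. The cause was not tested.

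Between MLTC-1 and primary cells, the filter at 10 CPM left 4413 genes lower. The fit of all 10 libraries, both offsets and the replicate block each left 1 member lower, and leaving out each library left 1 or 2. It gave 7 members higher each time, with 5095 to 5637 genes higher and 7492 to 7875 lower. Suclg1 was turned round by the length offset (0.12) and by length with GC content (0.31).

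Same-numbered libraries correlated at -0.00, -0.01 and 0.11 with hymeglusin and -0.04 with age. Differently numbered libraries ran from -0.12 to 0.12 with hymeglusin, so the numbers were not taken as pairs. With 2 libraries at each age the check yields a single value with either sign. It cannot exclude a pairing. With the replicate block 9 members were lower with hymeglusin (3127 genes higher and 3233 lower) and 0 were called with age (2088 and 2686). The small number of libraries limits the precision of every value, most of all with age.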

Other observations

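Enzymes and carriers at the entries and exits of the cycle, with the cytosolic counterparts of its enzymes, were described apart from it. With hymeglusin 11 of 15 tested genes fell and 0 rose, where 24.5% of all tested genes fell and 23.8% rose, at a median log2 fold change of -0.43 against 0.01 over all tested genes. The citrate carrier Slc25a1 fell by 0.61 (SE 0.0526, adjusted p = 6.29e-12), pyruvate carboxylase Pcx, which refills oxaloacetate, by 0.55 (SE 0.0493, adjusted p = 1.63e-11), and Idh1 by 0.48 (SE 0.0441, adjusted p = 2.34e-11). At 24 months 2 of 15 tested genes rose and 0 fell, where 13.5% of all tested genes rose and 15.1% fell, so the share that rose was near that of all genes. Slc25a1 rose by 1.49 (SE 0.408, adjusted p = 0.0271) and the mitochondrial malic enzyme Me2 by 1.07 (SE 0.326, adjusted p = 0.0379). Calls at 24 months followed transcript length, with 36.4% of the shortest genes called higher. The part of length in the rises of Slc25a1 and Me2 was not tested. Slc25a1 and Me2 thus fell with hymeglusin, where Me2 stood at -0.50 (SE 0.0463), and rose at 24 months, and the difference between the comparisons was not tested.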
